A study of Mus musculus with 8 samples.

Results

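The genes described are 7 androgen receptor target genes of the mouse prostate, Tmprss2, Bmpr1b, Parm1, Fkbp5, Ndrg1, Acsl3 and Pmepa1, chosen by name as genes known to respond to androgen in the prostate. Earlier results of these data were known when they were chosen. All 7 are among the 36333 genes of the deposited table, and all 7 were among the 13080 genes tested. The table holds RNA-seq of ventral prostate lobes at 12 months of age from 4 hSKP2-KI and 4 WT mice, with 1 library per mouse. WT mice were labelled FVB/N wild type, and hSKP2-KI mice, also labelled FVB/N, carry the coding sequence of human SKP2, joined by a P2A peptide, in exon 1 of their own probasin gene (Pbsn). SKP2 is the substrate-recognition subunit of a ubiquitin ligase, and the probasin promoter that drives it here is active in prostate epithelium and is itself switched on by androgen. The carriers were male offspring of heterozygous females and wild-type males, Pbsn is X-linked, and the knock-in line used for sequencing is not given in the sources used here.

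The androgen receptor is a nuclear receptor that is held by HSP90 and its cochaperones in the cytoplasm, binds testosterone or dihydrotestosterone, and then acts in the nucleus at DNA elements together with pioneer factors such as FOXA1, GATA2 and HOXB13. In luminal cells of the prostate it maintains secretion, lipid synthesis and differentiation, and its activity is commonly read from the transcripts of target genes. The targets described here differ in role. Tmprss2, Bmpr1b and Parm1 encode proteins of the cell surface, and Fkbp5 encodes a cochaperone of steroid receptors. Ndrg1 encodes a protein of differentiation, Acsl3 an enzyme of lipid metabolism and Pmepa1 a membrane protein that restrains TGF-β signalling. Several of them also answer other signals, Fkbp5 to glucocorticoid, Ndrg1 to hypoxia and Pmepa1 to TGF-β.

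In hSKP2-KI prostates the 7 genes did not move together. The transcripts of Tmprss2, Bmpr1b and Parm1 fell to 72.7%, 68.6% and 47.7% of the WT mean TPM, those of Ndrg1, Acsl3 and Pmepa1 rose to 157%, 168% and 204%, and Fkbp5, at 106%, did not pass the test. With limma on log2(TPM + 1) and Benjamini-Hochberg adjustment over all tested genes, 3 of the 7 were higher and 3 lower at an adjusted p under 0.05. In the same fit 33.9% of all tested genes were called, with 32.7% of tested genes higher and 1.23% lower. After median-ratio scaling, which sets the typical gene to the same level in every library, 2 of the 7 were higher and 3 lower, against 11.2% of all tested genes called, 6.91% higher and 4.25% lower.

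The position of each gene is given in RefSeq on GRCm38.p6, the assembly that the submitters' processing notes name as GRCm38 or mm10. Tmprss2 lies at chr16:97564682-97659541 on the minus strand, Bmpr1b at chr3:141837135-142169585 on the minus strand and Parm1 at chr5:91517700-91624011 on the plus strand. Fkbp5 lies at chr17:28398753-28486149 on the minus strand, Ndrg1 at chr15:66929318-66969641 on the minus strand, Acsl3 at chr1:78657825-78707743 on the plus strand and Pmepa1 at chr2:173224458-173276731 on the minus strand. All 7 are protein-coding genes. Acsl3 overlaps Utp14b and Gm51635, whose TPM reached at most 1.23 in any sample, and Fkbp5 overlaps Gm22146, which reached at most 0.294. Whether the counting used strand is not given in the sources used here, so reads from these overlapping genes cannot be told apart from those of Acsl3 and Fkbp5.

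The 250 bases before the annotated start are printed below for 2 genes that fell, 1 that rose and 1 that did not pass the test, so that the letters before genes with unlike responses can be set side by side. The promoters of Tmprss2 (chr16:97611196-97611445, minus strand), Parm1 (chr5:91517450-91517699, plus strand), Acsl3 (chr1:78657575-78657824, plus strand) and Fkbp5 (chr17:28486150-28486399, minus strand) are from RefSeq, GRCm38.p6, written 5′ to 3′ on the strand of the gene, with GC boxes (GGGCGG on either strand) in capitals. The Tmprss2 window lies before the start at base 97611195, inside the longer span that RefSeq gives the gene.
Tmprss2: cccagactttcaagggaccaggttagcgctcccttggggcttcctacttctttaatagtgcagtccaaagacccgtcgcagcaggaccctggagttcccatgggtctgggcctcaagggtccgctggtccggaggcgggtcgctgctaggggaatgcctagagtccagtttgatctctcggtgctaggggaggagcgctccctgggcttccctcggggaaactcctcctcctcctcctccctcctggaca
Parm1: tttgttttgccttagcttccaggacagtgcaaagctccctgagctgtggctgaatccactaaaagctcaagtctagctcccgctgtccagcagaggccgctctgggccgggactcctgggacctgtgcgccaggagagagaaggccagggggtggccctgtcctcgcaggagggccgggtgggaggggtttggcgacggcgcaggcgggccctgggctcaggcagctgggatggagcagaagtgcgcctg
Acsl3: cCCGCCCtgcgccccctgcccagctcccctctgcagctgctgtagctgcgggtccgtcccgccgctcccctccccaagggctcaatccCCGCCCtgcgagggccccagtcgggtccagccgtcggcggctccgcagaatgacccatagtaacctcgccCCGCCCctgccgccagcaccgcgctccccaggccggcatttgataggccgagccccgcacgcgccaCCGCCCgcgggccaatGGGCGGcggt
Fkbp5: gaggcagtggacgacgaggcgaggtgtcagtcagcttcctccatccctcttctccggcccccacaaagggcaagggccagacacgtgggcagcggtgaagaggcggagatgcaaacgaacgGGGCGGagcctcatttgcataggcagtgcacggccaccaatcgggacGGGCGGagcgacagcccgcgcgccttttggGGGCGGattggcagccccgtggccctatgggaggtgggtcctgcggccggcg

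Promoter sequence was matched for 5 of the 7 genes, all but Ndrg1 and Pmepa1. The androgen receptor binds inverted repeats of a short hexamer. The hexamer AGAACA, the minimal palindrome (GNACA, any 3 bases, TGTNC) and the full palindrome (AGAACA, any 3 bases, TGTTCT), which contains both of the shorter motifs, were searched on both strands. None of the 5 genes held any of them in these 250 bases, at the starts with a matched sequence. Not every start was covered. The Bmpr1b windows lie at base 141982514 or lower, inside the gene, whose span ends at base 142169585. The hexamer was present in 16.1% of 32851 promoters of the same length, the minimal palindrome in 0.387% and the full palindrome in 0.00913%. The GC box was present in 32.7% of all promoters. It occurred 5 times in the Acsl3 promoter and 3 times in the Fkbp5 promoter. It was not found before the matched starts of Tmprss2, Parm1 and Bmpr1b. The GC content was 75.6% for Acsl3, 68.0% for Fkbp5, 65.2% for Parm1, 61.6% for Tmprss2 and 46.8%, 52.8% and 56.4% for the 3 starts of Bmpr1b, against a median of 52.4% over all promoters. These matches describe the letters of the window only.

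Tmprss2 encodes a serine protease anchored in the membrane of luminal cells and is the androgen-driven partner in the most common gene fusion of human prostate cancer. Its TPM in hSKP2-KI replicates 1 to 4 was 98.6, 96.7, 89.2 and 102, and in WT replicates 1 to 4 it was 160.1, 127, 139.6 and 105. The highest hSKP2-KI prostate therefore lay just below the lowest WT prostate, WT replicate 4, and the hSKP2-KI values were close to each other. The means were 96.6 ± 5.45 (SD, n = 4) in hSKP2-KI and 133 ± 23.2 (SD, n = 4) in WT prostates. The log2 fold change was -0.44 (adjusted p = 0.0169 by limma, standard error 0.12) on the TPM as deposited and -0.71 (adjusted p = 0.0175) after median-ratio scaling. With sample quality weights the call was lost, at -0.32 (adjusted p = 0.0523).

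Bmpr1b encodes a type I receptor for bone morphogenetic proteins, which signals through SMAD1 and SMAD5. Its TPM was 64.0, 63.6, 90.5 and 66.1 in hSKP2-KI replicates 1 to 4, and 103, 98.9, 103 and 109 in WT replicates 1 to 4. Every WT prostate was above every hSKP2-KI prostate, and hSKP2-KI replicate 3 stood between the other hSKP2-KI prostates and WT. The mean of 71.0 ± 13.0 (SD, n = 4) in hSKP2-KI was compared with 104 ± 4.37 (SD, n = 4) in WT, with -0.55 as the log2 fold change (adjusted p = 0.00558 by limma, standard error 0.11) on the TPM as deposited. It was -0.82 (adjusted p = 0.00463) after median-ratio scaling, and -0.67 as deposited without hSKP2-KI replicate 3.

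Parm1 encodes a mucin-like membrane protein first described as an androgen-regulated transcript of the rat prostate. The direction in which androgen acts on Parm1 was not examined here, so its change is not a reading of receptor activity. Of the 7 genes it had the largest fall. Its TPM was 21.3, 24.1, 33.1 and 36.2 in hSKP2-KI replicates 1 to 4, against 42.0, 71.6, 68.0 and 59.1 in WT replicates 1 to 4. The groups did not overlap, with WT replicate 1 nearest to hSKP2-KI. The mean was 28.7 ± 7.10 (SD, n = 4) in hSKP2-KI and 60.2 ± 13.2 (SD, n = 4) in WT, and the log2 fold change was -1.05 (adjusted p = 0.00400 by limma, standard error 0.19) as deposited and -1.31 (adjusted p = 0.00304) after median-ratio scaling. Counted from the lowest log2 fold change of the TPM as deposited, Parm1 was number 30 of the 13080 tested genes, Bmpr1b number 116 and Tmprss2 number 163.

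Fkbp5 encodes FKBP51, a cochaperone of HSP90 in steroid receptor complexes and one of the most steadily androgen-induced transcripts of prostate cells. It was the most abundant of the 7 in both genotypes. Its TPM was 269.7, 439.8, 476 and 478 in hSKP2-KI replicates 1 to 4, and 445, 455, 354 and 312 in WT replicates 1 to 4. The genotypes overlapped over most of their range, and the lowest value of all was that of hSKP2-KI replicate 1. The means of 416 ± 99.1 (SD, n = 4) and 392 ± 69.7 (SD, n = 4) gave a log2 fold change of 0.07 with a 95% confidence interval of -0.34 to 0.48 (adjusted p = 0.779 by limma). After median-ratio scaling the sign turned, to -0.20 with an interval of -0.63 to 0.23 (adjusted p = 0.55), and without hSKP2-KI replicate 1 the value as deposited was 0.26.

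Ndrg1 encodes a cytoplasmic protein linked to growth arrest, differentiation and the response to low oxygen. Its TPM was 25.5, 32.6, 23.1 and 29.1 in hSKP2-KI replicates 1 to 4, and 15.9, 19.5, 18.5 and 16.3 in WT replicates 1 to 4. Every hSKP2-KI prostate was above every WT prostate. The mean was 27.6 ± 4.14 (SD, n = 4) in hSKP2-KI and 17.5 ± 1.71 (SD, n = 4) in WT, 0.62 higher on the log2 scale (adjusted p = 0.00431 by limma, standard error 0.11). The groups still did not overlap after median-ratio scaling, but the log2 fold change was then 0.36 and missed the threshold (adjusted p = 0.0508).

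Acsl3 encodes a long-chain acyl-CoA synthetase of the endoplasmic reticulum and lipid droplets, which activates fatty acids. Its TPM was 10.7, 9.0, 10.5 and 10.4 in hSKP2-KI replicates 1 to 4, and 4.74, 6.08, 5.74 and 7.53 in WT replicates 1 to 4. The lowest hSKP2-KI value, in replicate 2, was above the highest WT value, in replicate 4. The mean was 10.1 ± 0.779 (SD, n = 4) in hSKP2-KI and 6.03 ± 1.2 (SD, n = 4) in WT, 0.68 higher on the log2 scale (adjusted p = 0.00441 by limma, standard error 0.13), or 0.44 (adjusted p = 0.0276) after median-ratio scaling.

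Pmepa1 encodes a membrane protein that binds NEDD4-family ubiquitin ligases and restrains SMAD signalling. Its TPM was 7.26, 13.0, 8.09 and 10.6 in hSKP2-KI replicates 1 to 4, and 4.99, 5.65, 3.16 and 5.36 in WT replicates 1 to 4. It showed the largest rise of the 7, with no overlap between genotypes and with hSKP2-KI replicate 2 as the highest value. The mean was 9.75 ± 2.61 (SD, n = 4) in hSKP2-KI and 4.79 ± 1.12 (SD, n = 4) in WT, 0.88 higher on the log2 scale (adjusted p = 0.00796 by limma, standard error 0.19), or 0.65 (adjusted p = 0.0475) after median-ratio scaling. The call was lost under quantile normalization, at 0.59 (adjusted p = 0.0735).

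**Figure D1:**
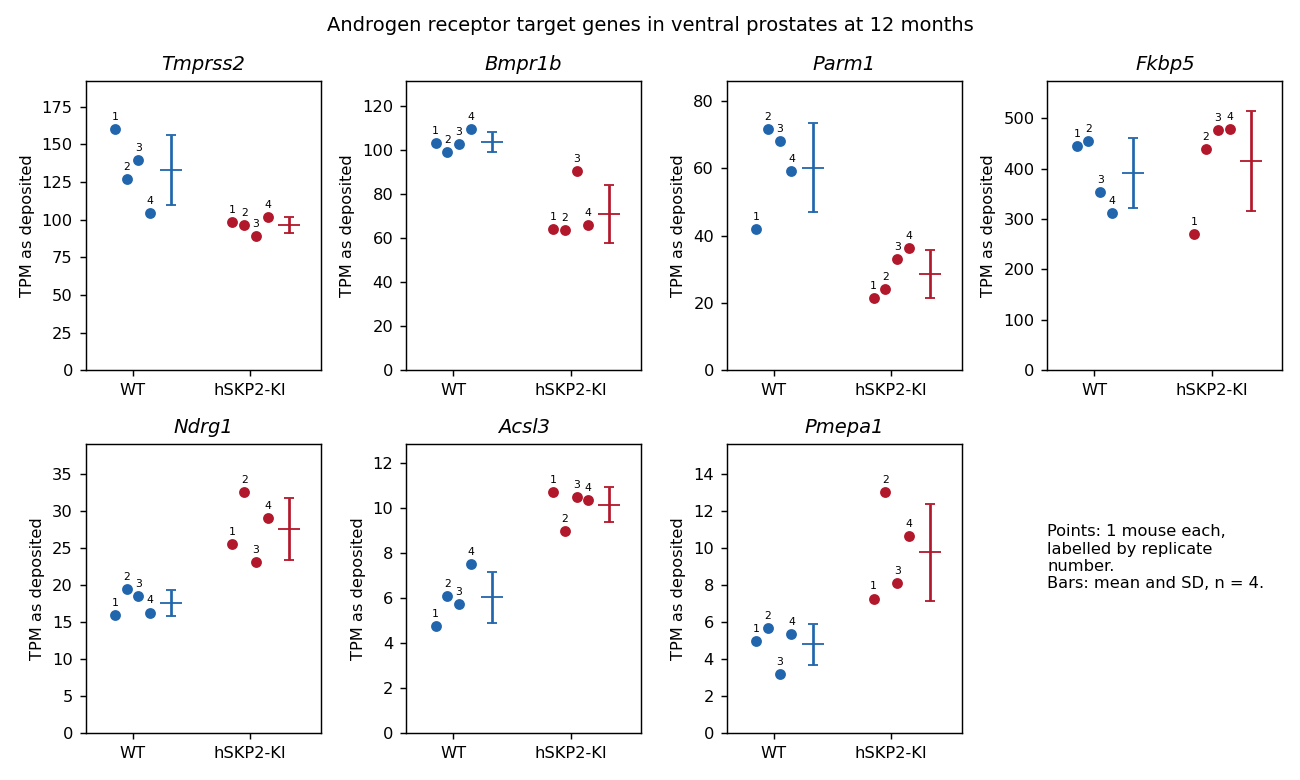
TPM as deposited (vertical axis, starting at 0) of the 7 genes in each mouse, WT in blue and hSKP2-KI in red, with the replicate number at each point and the mean ± SD (n = 4) beside it. Tmprss2, Bmpr1b and Parm1 lie lower in every hSKP2-KI prostate, Ndrg1, Acsl3 and Pmepa1 lie higher in every one, and the Fkbp5 values overlap.

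The plot of TPM by mouse shows that 6 of the 7 genes did not overlap between genotypes, on the TPM as deposited and after median-ratio scaling. Of all tested genes, 35.1% did not overlap on the TPM as deposited and 19.2% after median-ratio scaling. The median log2 fold change of the 7 was 0.07 as deposited and -0.20 after median-ratio scaling, and that of all tested genes was 0.23 and -0.01. These medians fall at Fkbp5 and describe none of the 6 genes that passed the test. Tmprss2 and Bmpr1b were also named by the study among its changed androgen-responsive genes in these same prostates. All 7 were chosen with earlier results of these data known. Their directions, and their counts beside all tested genes, are therefore not independent evidence.

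In WT prostates the order of mean TPM, which is a level per transcript length, was Fkbp5, Tmprss2, Bmpr1b, Parm1, Ndrg1, Acsl3 and Pmepa1. The neighbours Tmprss2 and Bmpr1b overlapped in WT, as did Acsl3 and Pmepa1, while the values of Fkbp5, Bmpr1b, Parm1, Ndrg1 and Acsl3 were apart from each other. In hSKP2-KI prostates the order of the means was the same, but Parm1 (21.3 to 36.2 TPM) now overlapped with Ndrg1 (23.1 to 32.6 TPM). Tmprss2 (89.2 to 102 TPM) and Bmpr1b (63.6 to 90.5 TPM) still crossed in hSKP2-KI, as did Acsl3 and Pmepa1. Among all tested genes, Parm1 went from rank 1582 by mean TPM in WT to 3790 in hSKP2-KI, and Ndrg1 from rank 4904 to 3930.

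TPM are shares of a library, and 2 secreted proteins take much of it in the ventral prostate. Sbp, which encodes the spermine-binding protein, had 232706 to 256865 of the 1000000 TPM in WT prostates and 198342 to 218476 in hSKP2-KI prostates. Spink1, which encodes a secreted trypsin inhibitor, had 89902 to 119903 in WT and 50788 to 75952 in hSKP2-KI. The log2 fold changes of all 7 genes were therefore also computed under 4 other scalings. The 3 falls passed the test under median-ratio scaling, quantile normalization, rescaling without the 20 most abundant genes and setting levels relative to epithelial genes. Of the 3 rises, Acsl3 passed it under all 4, Pmepa1 under median-ratio scaling and without the 20 most abundant genes, and Ndrg1 under quantile normalization and without the 20 most abundant genes. For Fkbp5 the log2 fold change was 0.07 as deposited and between -0.20 and -0.15 under the 4 others, none of which passed the test.

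**Figure D2:**
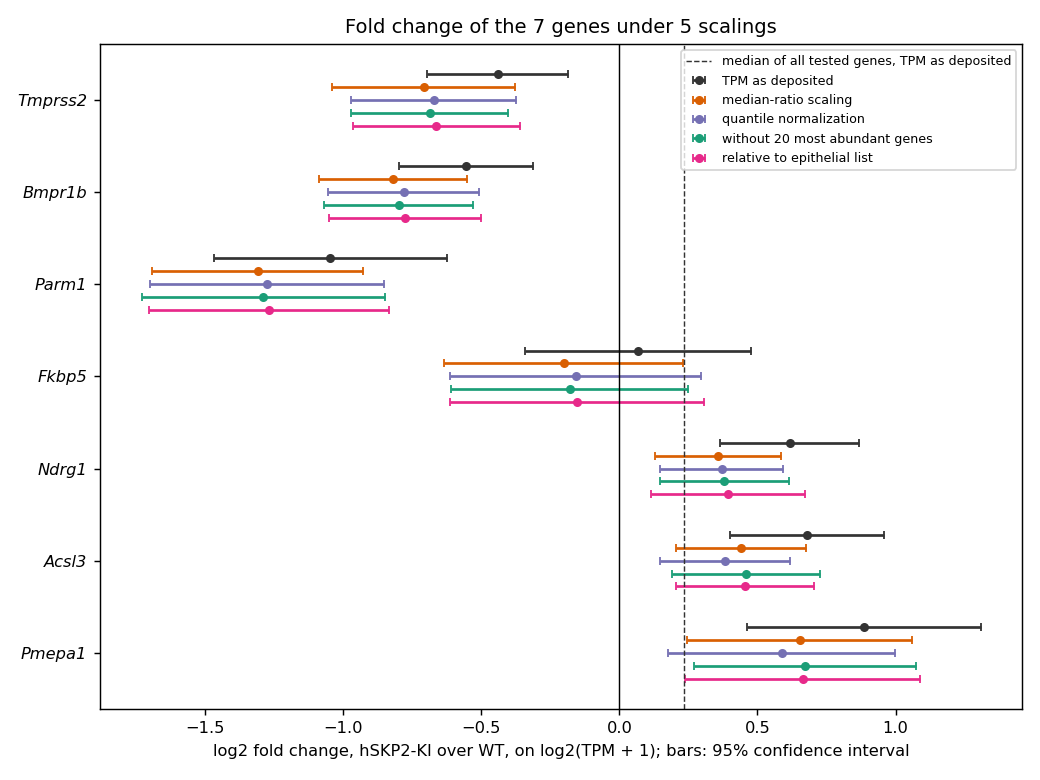
Log2 fold change of hSKP2-KI over WT on log2(TPM + 1) (horizontal axis) for each of the 7 genes under 5 scalings, with bars for the 95% confidence interval of limma and a dashed line at 0.23, the median of all tested genes as deposited. Tmprss2, Bmpr1b and Parm1 stay left of 0 and Ndrg1, Acsl3 and Pmepa1 right of 0 under each of the 5, while the Fkbp5 bars cross 0 under each.

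The ratio of 2 genes within a library does not depend on how libraries are scaled. Of the 21 pairs among the 7 genes, the ratio of TPM did not overlap between genotypes in 10, and these were all 9 pairs of a gene that fell with a gene that rose, plus Fkbp5 over Parm1. Within the genes that fell, and within those that rose, none of the 3 pairs each was free of overlap. Each gene that fell or rose already had no overlap in its own TPM, so the outcome for these 9 pairs was fixed in advance. The classes come from the same samples, and the counts are a description. For Parm1 over Acsl3 the ratio was 2.83 ± 0.651 (SD, n = 4) in hSKP2-KI and 10.1 ± 2.03 (SD, n = 4) in WT. For Tmprss2 over Bmpr1b it was 1.40 ± 0.275 and 1.29 ± 0.247, respectively, and the ranges overlapped. Fkbp5 over Parm1 was 12.7 to 18.2 in hSKP2-KI and 5.21 to 10.6 in WT.

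**Figure D3:**
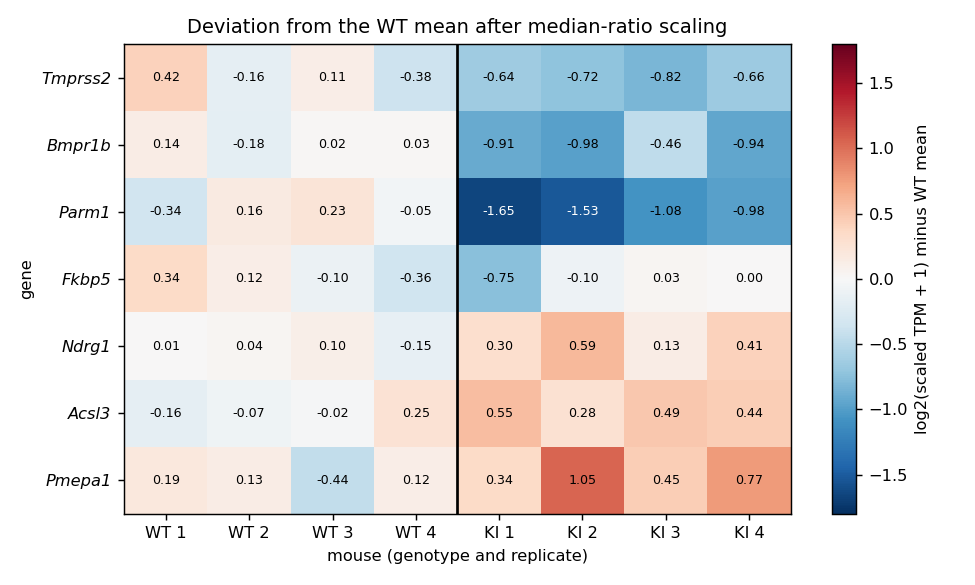
Difference of log2(scaled TPM + 1) from the WT mean after median-ratio scaling, printed and coloured for each gene (rows) in each mouse (columns), WT left of the line and hSKP2-KI (KI) right of it. The top 3 rows are negative and the bottom 3 positive in all 4 hSKP2-KI mice, and the Fkbp5 row runs from -0.75 in hSKP2-KI replicate 1 to 0.34 in WT replicate 1.

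The map of deviations by mouse also shows how the genes varied among mice of 1 genotype. The coefficient of variation of TPM was lowest for Bmpr1b in WT (4.21%) and for Tmprss2 in hSKP2-KI (5.64%), and it was 17.5% for Tmprss2 in WT and 18.4% for Bmpr1b in hSKP2-KI. Pmepa1 varied by 26.7% in hSKP2-KI and 23.4% in WT, and Parm1 by 24.8% and 21.9%. Replicate 1 of hSKP2-KI had the lowest Parm1, Fkbp5 and Pmepa1 values of its genotype, and the highest Acsl3 value.

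A list of 20 genes covered the receptor complex, its DNA-binding partners, coregulators and chaperones. Of these, 6 were higher and 0 lower by limma on the TPM as deposited, with a median log2 fold change of 0.19 against 0.23 for all tested genes. After median-ratio scaling 2 were higher and 2 lower, with a median of -0.07. Over all tested genes, 32.7% were higher and 1.23% lower as deposited, and 6.91% and 4.25% after median-ratio scaling. The counts of this list and of those below stand beside these shares. The 2 that were higher under both are the zinc-finger factors Gata3, which rose from 19.8 ± 2.67 to 35.7 ± 2.04 TPM (log2 fold change 0.82, adjusted p = 0.000777), and Gata2, a partner of the receptor at its targets, which rose from 26.7 ± 4.10 to 41.9 ± 2.11 TPM (0.64, adjusted p = 0.00273). The 2 that were lower after median-ratio scaling are Foxa1, the forkhead pioneer factor, with -0.33 (adjusted p = 0.0342) against -0.06 as deposited, and the corepressor Nrip1, with -0.34 (adjusted p = 0.0473) against -0.08 as deposited. The coactivators Ncoa3 and Ncoa4 and the cochaperone Ptges3 were higher on the TPM as deposited, by 0.58, 0.62 and 0.27, and none of the 3 passed the test after median-ratio scaling. Hoxb13, a prostate homeobox factor of high abundance, had 620 ± 49.3 TPM in hSKP2-KI and 681 ± 69.5 in WT (-0.13, adjusted p = 0.265, as deposited). After median-ratio scaling it was at -0.40 without overlap and missed the threshold (adjusted p = 0.0636 by limma). It was called lower under quantile normalization (-0.41, adjusted p = 0.0246) and without the 20 most abundant genes (-0.38, adjusted p = 0.0348).

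Enzymes that make, activate or clear androgen were described with a list of 16 genes, of which 15 are in the table and 8 were tested. As deposited 4 were higher and 0 lower, and after median-ratio scaling 1 was higher and 0 lower, with medians of 0.34 and 0.12. That gene is Ugt2b34, a glucuronosyltransferase of the family that conjugates steroids, at 7.40 ± 3.03 TPM in hSKP2-KI and 0.633 ± 0.411 TPM in WT (log2 fold change 2.33, adjusted p = 0.000422, and 2.16 after median-ratio scaling). Srd5a2, the steroid 5-alpha reductase of the prostate that makes dihydrotestosterone, had 55.4 ± 13.4 TPM in hSKP2-KI and 33.4 ± 6.97 in WT, with 0.71 (adjusted p = 0.0141) as deposited and 0.44 (adjusted p = 0.0981) after median-ratio scaling. Srd5a3 and Ugt2b35 were the other 2 higher as deposited, by 0.38 and 0.93, and neither passed the test after median-ratio scaling.

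A list of 83 other androgen-responsive genes was compared with the 7, of which 82 are in the table and 79 were tested. On the TPM as deposited 25 were higher and 1 lower, with a median log2 fold change of 0.22, against 0.23 over all tested genes. After median-ratio scaling 4 were higher and 5 lower, with a median of -0.03 against -0.01. The shares called in each direction in the list were thus near those of all tested genes. Ccnd1 and Insig1 were among the genes of this list that the study picked from these prostates, and the direction of such genes is not independent evidence.

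The 4 genes of that list that were higher after median-ratio scaling were Sat1, a polyamine acetyltransferase, Tnfaip8, a regulator of cell survival, the G1 cyclin Ccnd1 and the kinase anchor Akap12. As deposited Sat1 rose from 102 ± 11.3 to 174 ± 16.8 TPM (log2 fold change 0.77, adjusted p = 0.00101), Tnfaip8 by 0.84 (adjusted p = 0.00109), Ccnd1 by 0.95 (adjusted p = 0.00365) and Akap12 by 0.65 (adjusted p = 0.00625). The 1 gene lower under both was Azgp1, a secreted zinc-binding glycoprotein, at 293 ± 35.6 TPM in hSKP2-KI and 569 ± 138 in WT (-0.93, adjusted p = 0.00321, and -1.20 after median-ratio scaling). The other 4 that were lower after median-ratio scaling included Idi1, an isomerase of isoprenoid synthesis, with -0.64, and Insig1, a sterol-sensing membrane protein, with -0.55, and none of the 4 passed the test as deposited (-0.39 for Idi1 and -0.29 for Insig1). Acsl3, the lipid gene among the 7, was higher under both scalings. The 3 most abundant genes of the list were B2m, Krt19 and Krt8, with log2 fold changes of 0.99 (adjusted p = 0.0149), 0.54 (adjusted p = 0.0302) and 0.16 (adjusted p = 0.129) as deposited, and none of them passed the test after median-ratio scaling.

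Secretory and luminal genes of the prostate that depend on androgen formed a list of 7, all tested, with 2 higher and 3 lower as deposited and 0 higher and 2 lower after median-ratio scaling, and medians of -0.25 and -0.52. The 2 lower under both were Azgp1, described above, and Pbsn, which went from 5984 ± 2447 TPM in WT to 115 ± 39.6 TPM in hSKP2-KI prostates (log2 fold change -5.66, adjusted p = 8.72e-07). Pbsn holds the insertion, so its value cannot be read apart from the knock-in allele. Spink1 was lower as deposited (-0.76, adjusted p = 0.0219), and Msmb, which encodes a secreted microseminoprotein, was higher (0.96, adjusted p = 0.00599). Tgm4, the prostate transglutaminase, was called higher as deposited (2.23, adjusted p = 0.028), with 77.5 TPM in hSKP2-KI replicate 1 and 4.99 to 6.74 in the other 3. Sbp did not pass the test (-0.25, adjusted p = 0.398).

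Genes known to be repressed by androgen or to rise after castration were a list of 7, with 5 higher and 1 lower as deposited and 1 higher and 1 lower after median-ratio scaling, and medians of 0.50 and 0.25. The lower gene was Clu, clusterin, a secreted chaperone that rises in the regressing prostate, with 504, 425, 386 and 769 TPM in hSKP2-KI replicates 1 to 4 and 2386, 3031, 2738 and 1332 in WT (log2 fold change -2.17, adjusted p = 0.00074). The gene higher under both was Igfbp5, an IGF-binding protein, at 250.4 ± 75.5 TPM against 123 ± 35.9 TPM (1.01, adjusted p = 0.00832). Mgp, Igfbp3, Tgfb1 and the glucocorticoid receptor gene Nr3c1 were higher as deposited, by 0.97, 0.69, 0.50 and 0.47, and not called after median-ratio scaling. The share of all tested genes called higher was 32.7% as deposited and 6.91% after median-ratio scaling.

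**Figure D4:**
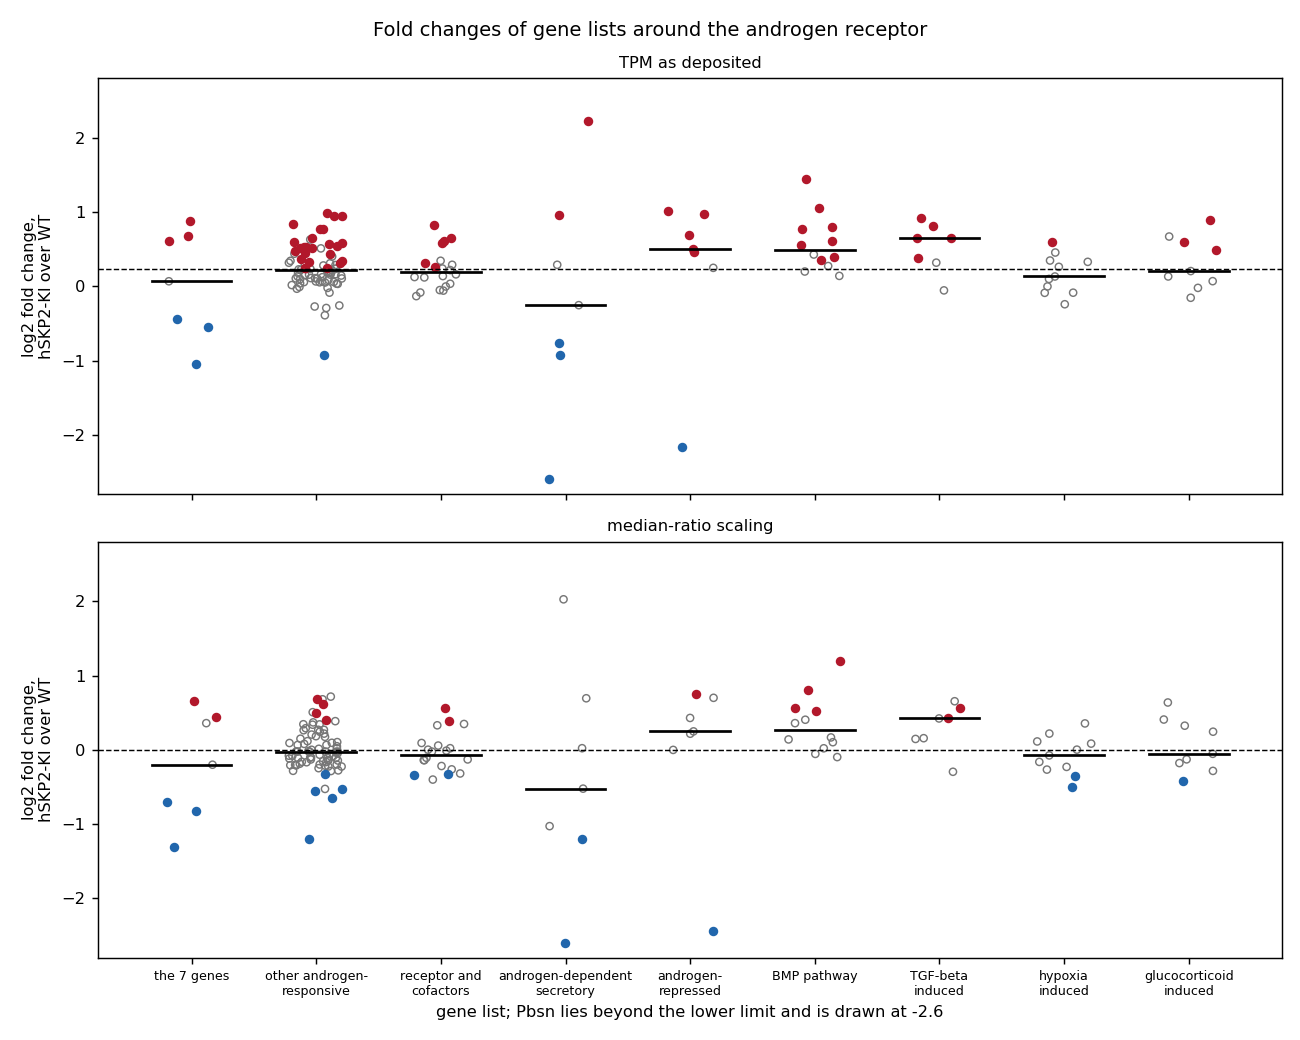
Log2 fold change of hSKP2-KI over WT (vertical axis) for each tested gene of 9 lists, on the TPM as deposited (upper panel) and after median-ratio scaling (lower panel), with filled red or blue points for genes higher or lower at an adjusted p under 0.05, open points for the rest, a bar at each list's median and a dashed line at the median of all tested genes. The 7 genes are spread to both sides of the dashed line in both panels, and the other androgen-responsive genes have their median close to it.

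Other signals known to act on single genes of the 7 were read from their own lists. As a background, 32.7% of all tested genes were higher and 1.23% lower as deposited, and 6.91% and 4.25% after median-ratio scaling. For glucocorticoid, which also induces Fkbp5, 3 of 9 listed genes were higher and 0 lower as deposited, and 0 higher and 1 lower after median-ratio scaling, with medians of 0.21 and -0.05. The 3 were Dusp1, Cebpd and Sgk1, and the lower gene was Tsc22d3, a classical glucocorticoid target, at -0.42 (adjusted p = 0.0216). For hypoxia, which also induces Ndrg1, 1 of 11 tested genes was higher and 0 lower as deposited, and 0 higher and 2 lower after median-ratio scaling, with medians of 0.13 and -0.08. P4ha1, a collagen prolyl hydroxylase, was the higher gene (0.60, adjusted p = 0.00724), and Vegfa and Ddit4 were the lower genes, with -0.51 (adjusted p = 0.0222) and -0.35 (adjusted p = 0.0282).

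For TGF-β, which also induces Pmepa1, 5 of 7 tested genes were higher and 0 lower as deposited, and 2 higher and 0 lower after median-ratio scaling, with medians of 0.65 and 0.42. The 2 were the matrix genes Ltbp2, at 6.57 ± 0.626 TPM against 3.85 ± 0.689, and Tgfbi, at 18.3 ± 2.87 TPM against 10.2 ± 2.78. The feedback inhibitor Smad7 had -0.05 (adjusted p = 0.705 by limma) as deposited. The lowest log2 fold change of the list was -0.05 as deposited and -0.30 after median-ratio scaling. Under quantile normalization 1 gene of the list was called lower. For bone morphogenetic proteins, the ligands of Bmpr1b, 8 of 12 tested genes of a list of 16 were higher and 0 lower as deposited, and 4 higher and 0 lower after median-ratio scaling, with medians of 0.49 and 0.26. These 4 were the ligand gene Bmp4 (0.80) and the target genes Id1 (1.45), Id3 (1.06) and Id2 (0.78), as log2 fold changes of the TPM as deposited. Id1 was at 28.4, 29.8, 28.4 and 35.1 TPM in hSKP2-KI replicates 1 to 4 and at 6.89, 17.3, 9.44 and 10.4 in WT. Thus Id1 was higher in every hSKP2-KI prostate while Bmpr1b was lower in every one. Beside the counts of both lists, 32.7% of all tested genes were higher as deposited and 6.91% after median-ratio scaling.

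The relatives of each gene are given beside it. Bmpr1a, the closest relative of Bmpr1b, had 35.9 ± 2.50 TPM in hSKP2-KI and 27.0 ± 2.48 in WT (log2 fold change 0.40, adjusted p = 0.00881, against a rescaled 0.14, adjusted p = 0.214), while Bmpr1b was lower under both. Of the 8 other transmembrane serine proteases listed with Tmprss2, 4 were tested and 1, Hpn (hepsin), was higher, at 7.19 ± 1.02 TPM against 3.45 ± 1.05 (0.90, adjusted p = 0.00400, and a rescaled 0.68, adjusted p = 0.0188), and 0 were lower. St14, Tmprss13 and Tmprss4 had 0.16, 0.01 and 0.15 and did not pass the test. Of the 4 other long-chain acyl-CoA synthetases, 3 were tested and Acsl5 was higher as deposited (0.32, adjusted p = 0.0138) but not after median-ratio scaling (0.06), and Acsl1 and Acsl4 had 0.05 and 0.02 (adjusted p = 0.776 and 0.942).

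Of the 3 relatives of Ndrg1, Ndrg2 and Ndrg3 were higher as deposited, by 0.67 (adjusted p = 0.0105) and 0.26 (adjusted p = 0.0441), Ndrg4 had 0.58 (adjusted p = 0.106), and none passed the test after median-ratio scaling. Of the 10 other FK506-binding proteins listed with Fkbp5, 5 were higher and 0 lower as deposited and 1, Fkbp1a, was higher after median-ratio scaling (0.61 as deposited, 0.34 rescaled). Fkbp4, which encodes FKBP52, the other large cochaperone of the receptor, had 212 ± 18.8 TPM in hSKP2-KI and 221 ± 32.1 in WT (-0.05, adjusted p = 0.706). Ldlrad4, the relative of Pmepa1, had 3.55 ± 0.636 TPM against 2.62 ± 0.232 (0.32, adjusted p = 0.0758). Differences between a gene and its relatives were not tested. Against these counts of relatives, 32.7% of all tested genes were higher as deposited and 6.91% after median-ratio scaling.

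**Figure D5:**
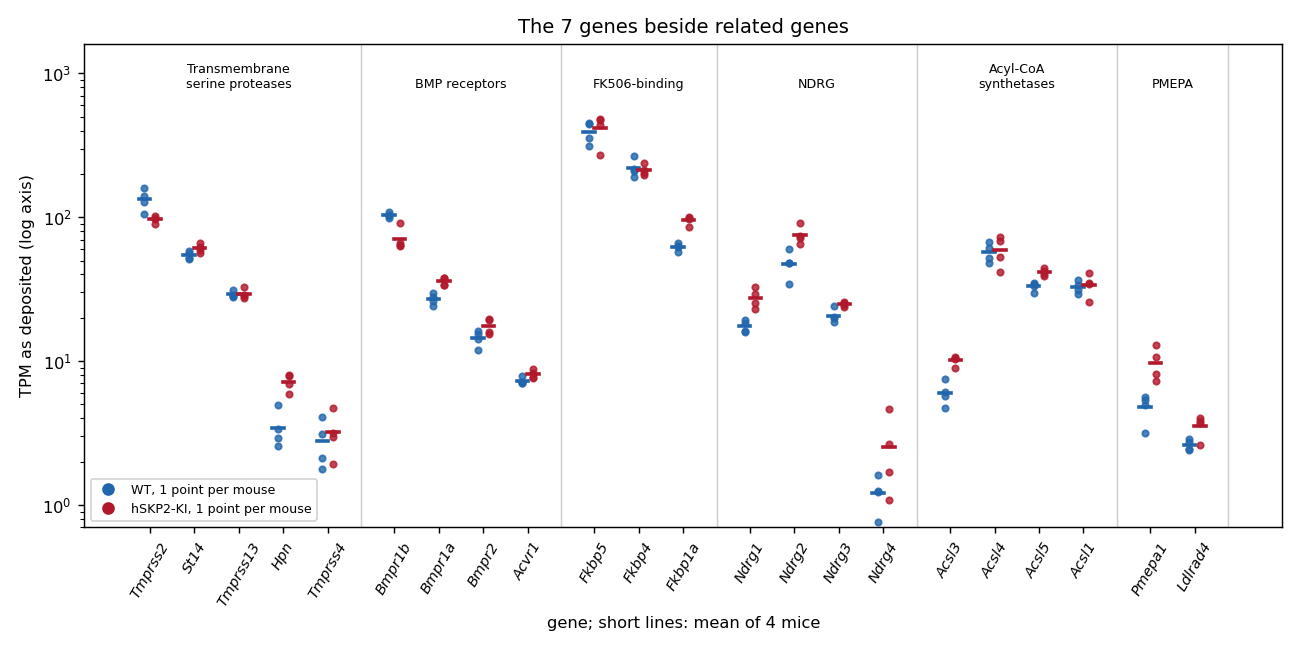
TPM as deposited (vertical log axis) of the 7 genes and their relatives, with 1 point per mouse, WT in blue and hSKP2-KI in red, and short lines at the mean of 4 mice. Tmprss2 and Bmpr1b, each the most abundant of its family shown, are lower in hSKP2-KI, and their relatives Hpn and Bmpr1a are higher on this scale.

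Bulk tissue mixes cell types, and fewer cells of a type cannot be told apart from less RNA per cell. The marker counts below stand beside 32.7% of all tested genes higher as deposited and 6.91% after median-ratio scaling. The summed TPM of 8 epithelial markers was 2121 to 2365 in hSKP2-KI and 1771 to 2002 in WT, and 3 of the 8 were called higher as deposited and 0 after median-ratio scaling. Fibroblast markers summed to 762 to 1339 against 422 to 608 (6 of 7 higher as deposited, 2 after rescaling), and smooth muscle markers to 3011 to 4624 against 2032 to 2564 (6 of 6 and 3). Endothelial markers summed to 32.0 to 56.7 in hSKP2-KI and at most 28.5 in WT (4 of 5 and 1), and macrophage markers to 119.6 to 255 against 56.3 to 118 (4 of 5 and 0). Basal epithelial markers summed to 292 to 424 against 196 to 305 (2 of 4 and 0). Of these lists, the epithelial, fibroblast, smooth muscle, endothelial and macrophage sums did not overlap between genotypes, and their part in the change of the 7 genes was not tested.

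Markers of other cells that the dissection could include were also summed. Urothelial markers summed to 24.6 to 69.3 TPM in hSKP2-KI and 7.98 to 14.9 in WT, and both tested markers, Upk1b and Upk2, were higher under both scalings. Seminal vesicle markers summed to at most 0.656 TPM in any prostate, and Svs2 was listed at 0 in all 8. The pan-leukocyte gene Ptprc was at 3.72 to 7.76 against 1.59 to 5.29, lymphocyte markers at 3.58 to 11.4 against 2.51 to 17.3, Schwann cell markers at 6.65 to 13.6 against 5.0 to 8.37, adipocyte markers at 40.6 to 193 against 24.6 to 156 and skeletal muscle markers at 249.9 to 391 against 157 to 288, and each of these sums overlapped.

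Relative to the epithelial markers of the same prostate, taken as the mean log2(TPM + 1) of the 8, 6 of the 7 genes did not overlap between genotypes, against 13.5% of all tested genes on that scale. The difference of hSKP2-KI from WT was -1.27 for Parm1, -0.78 for Bmpr1b and -0.66 for Tmprss2, and it was 0.66 for Pmepa1, 0.46 for Acsl3 and 0.39 for Ndrg1. Permuting the genotype labels exactly over all 70 assignments (two-sided) gave p = 0.0286 for each of these 6, the smallest it can give, and p = 0.6 for Fkbp5, with a difference of -0.15. For the 6 genes the lack of overlap fixes this p, so it adds nothing to that statement. These p-values are for 7 tests and are not adjusted.

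The genes whose levels followed each of the 7 most closely over the 8 prostates were found by Pearson's r of median-ratio scaled log2(TPM + 1), given as a description over samples that share library and genotype. Fkbp5 was followed by Smim1 (r = 0.95) and Myzap (0.94), Tmprss2 by Btbd6 (0.99) and Dfna5 (0.98), Bmpr1b by Slc25a16 and Gstm7 (0.99 each) and Parm1 by Ddx26b and Irak1 (0.99 each). Ndrg1 was followed by Scpep1 and Rhebl1 (0.96 each), Acsl3 by Pcp4 and Clec2d (0.98 each) and Pmepa1 by Ehd2 (0.99) and Matn4 (0.98). None of the 14 is another of the 7 genes. After the mean of each genotype was subtracted, r was between 0.90 and 0.99 for these pairs. The pairs were picked for the highest r among all tested genes over only 8 samples. High values, also after the subtraction, are thus in part a result of that choice.

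The knock-in was checked in the same libraries. The table has no row for human SKP2, and mouse Skp2, on which reads of the human sequence may also be counted, had 37.3 to 60.6 TPM in hSKP2-KI and 1.05 to 2.27 TPM in WT prostates. Each library sums to 1000000 TPM, and the read total of each library is not given with them, so no counting interval was computed. The labels name the mice as biological replicates.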

How the data were processed

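RNA-seq of 8 ventral prostates, 4 hSKP2-KI and 4 WT by the genotype in their labels, was analysed. The authors trimmed paired-end reads of poly-A selected RNA and used CLC software for mapping, and deposited 1 table of TPM, in which each library sums to 1000000. The version, annotation, counting and strand settings are not given in the sources used here, and the submitters' processing notes name GRCm38 and mm10. TPM keeps no read counts, and the study's methods give only a nominal read number and no total for each library, so no count model was used. The table holds 0 columns of other samples.

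Genes that reached a TPM of 1 in 4 or more of the 8 samples (13080) were fitted on log2(TPM + 1) by limma-trend (limma 3.58.1, R 4.3.3). The pseudocount of 1 makes fold changes of low genes smaller than the ratio of their TPM. P-values were adjusted by Benjamini-Hochberg over all tested genes, with a threshold of 0.05. Exact permutation tests used SciPy 1.17.1 in Python 3.11.15, and figures matplotlib 3.10.9.

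The 7 genes and all lists were chosen with earlier results of these data known. Krt8, Azgp1, Fkbp4, Col1a1 and Pbsn were among the genes in more than 1 list. Some genes of the lists are counted but not reported here by name. Named were the 7 genes, any gene of a list of up to 8 genes, from longer lists the 5 genes with the smallest adjusted p in each direction and the 3 most abundant, the 2 genes most like each of the 7, and Skp2 and Pbsn. Alternatives were 4 other scalings, a pseudocount of 0.1, no filter, a mean TPM of at least 5, a robust empirical Bayes step, sample quality weights, a replicate block and leaving out each sample. The scaling relative to epithelial genes subtracts their mean log2(TPM + 1) in each sample. Median-ratio scaling combined with the block or with a sample left out was added after seeing the data.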

Additional observations from a re-analysis of the deposited data

Results flagged for a closer look

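For each of 73 genes of the table named in the text, the 4 mice of each genotype were searched for a sample whose gap to its nearest neighbour exceeded Dixon's critical share of the group's range at the 95% level. Of 146 groups, 12 held such a sample, and chance flags about 1 in 20. Among the 7 androgen receptor target genes the only one was Bmpr1b in hSKP2-KI replicate 3, at 90.5 TPM with the other 3 between 63.6 and 66.1. That mouse lay nearest to the WT prostates and still below all of them.

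Replicate 3 of hSKP2-KI also stood apart for Sbp, at 218476 TPM against 198342 to 200832 in the other 3, for Vegfa, at 45.8 against 36.1 to 37.1, and for Fkbp1a, at 85.3 against 97.2 to 99.7. Replicate 1 of hSKP2-KI had 77.5 TPM of Tgm4 against 4.99 to 6.74 in the others, and 14.0 TPM of Tgfbi with all others at 19.5 or more. Replicate 2 had 77.2 TPM of Ccnd1 against 44.5 to 47.6 and 542 TPM of Mgp against 238 to 286. Replicate 4 had 174 TPM of Pbsn against 93.0 to 97.8, and 13.6 TPM of Upk2 against 3.64 to 4.79. Of WT mice, replicate 1 had 34.5 TPM of Vegfa against 49.3 to 52.4 and replicate 3 had 0.983 TPM of Upk2 against 1.58 to 1.67.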

How the results depend on the processing

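Of 378 alternative values, 306 kept their direction and, where a p-value was computed, their side of the threshold, or stayed near the main count. For levels relative to epithelial genes with a sample left out, no p-value was computed. Those values were compared by direction only, so they do not show that a call held. On the TPM as deposited, the 6 calls among the 7 genes held with each of the 8 samples left out (Ndrg1 up to 0.69, Acsl3 up to 0.78 and Pmepa1 up to 1.00), and after median-ratio scaling the 3 falls did too, while Ndrg1, Acsl3 and Pmepa1 passed in 1, 2 and 1 of the 8. The number of the 7 genes called higher was 3 as deposited, 1 relative to epithelial genes and 0 to 1 after median-ratio scaling with a sample left out. The value of Tmprss2 was -0.32 with sample quality weights, where its call was lost. The calls were also lost for Ndrg1 at 0.36 after median-ratio scaling (with or without the replicate block) and 0.39 relative to epithelial genes, and for Pmepa1 at 0.59 with quantile normalization and 0.66 relative to epithelial genes. After median-ratio scaling with a sample left out, Ndrg1 ranged from 0.28 to 0.44 and was called only at its highest value, without hSKP2-KI replicate 3. Acsl3 ranged from 0.39 to 0.53 and was called only at 0.50 without hSKP2-KI replicate 2 and 0.53 without WT replicate 4. Pmepa1 ranged from 0.51 to 0.75 and was called only at its highest value, without hSKP2-KI replicate 1. Fkbp5, which was never called, turned from 0.07 to -0.20 (median-ratio, also with the replicate block), -0.16 (quantile), -0.18 (without the 20 most abundant genes) and -0.15 (epithelial), and ranged from -0.035 to 0.26 with a sample left out, from -0.32 to -0.020 after median-ratio scaling as well, and relative to epithelial genes from -0.29 (without WT replicate 4) to 0.076 (without hSKP2-KI replicate 1). Under median-ratio scaling, quantile normalization, rescaling without the 20 most abundant genes and levels relative to epithelial genes, the other androgen-responsive genes gave 4, 4, 4 and 3 higher and 5, 4, 3 and 3 lower, in place of 25 and 1, and all tested genes gave 904, 708, 888 and 629 higher and 556, 608, 438 and 267 lower, in place of 4272 and 161. With a sample left out, the other androgen-responsive genes gave 18 to 27 higher and 1 to 2 lower, the 2 being reached without hSKP2-KI replicate 3 or 4 or WT replicate 3, and all tested genes gave 2839 (without WT replicate 1) to 4548 higher and 114 to 154 lower. The cause of these shifts was not tested.

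The replicate numbers were not taken as pairs, because the correlations across genes between same-numbered mice, once genotype means were removed, were 0.22, -0.11, 0.17 and -0.01, and genes are not independent of each other. The replicate block gave 4941 genes higher and 187 lower and changed no call among the 7 genes on the TPM as deposited. The read total of each library is not given, so no counting limit was set for the low genes Acsl3 and Pmepa1.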
